A study of Mus musculus with 2 samples.

Results

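The genes described here encode the core of bone morphogenetic protein (BMP) and transforming growth factor beta (TGF-beta) signalling: secreted ligands, their antagonists, the receptors, the Smad proteins and the Id target genes. They were chosen by name for their place in the pathway, as 47 genes of the 43346 mouse genes in the tables and of 21474 protein-coding genes. All 47 were found in both tables. They were sorted into 11 roles, with 11 BMP-type ligands, 6 TGF-beta and activin-type ligands, 8 antagonists and modulators, 5 type I receptors, 4 type II receptors, 1 co-receptor, 8 Smads in 4 roles and 4 Id genes.

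The study sequenced total RNA from mouse neural tube, from which the brain and spinal cord form, at embryonic day 13.5. Its 1 group held 2 libraries, biological replicates 1 and 2, from embryos of the strain B6NCrl, with males and females pooled. Each library started from 10 ng of RNA, to which spike-in RNA was added. With 1 group there was no condition to compare, so levels, their order, their division between transcripts and the spread between the libraries are reported. The mouse genes held 32151162 estimated reads in replicate 1 and 21084234 in replicate 2. Over 17428 genes the biological coefficient of variation between the libraries was 9.24%.

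Ligands of this family bind a complex of type I and type II receptors, which are serine/threonine kinases. The type II receptor activates the type I receptor, which phosphorylates receptor-regulated Smads (R-Smads). Most BMP-type ligands act mainly through Smad1, Smad5 and Smad9, and TGF-beta and activin-type ligands through Smad2 and Smad3. Both kinds of R-Smad join the co-Smad, Smad4, and act in the nucleus, where BMP signalling induces the Id genes and both branches induce inhibitory Smads. In the neural tube, BMPs from the roof plate and the overlying ectoderm pattern the dorsal progenitors, and secreted antagonists limit their reach.

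Levels are in TPM, transcript abundance scaled per length to a fixed sum per library. Detection here means that both libraries reached 1 TPM. By this rule 39 of the 47 genes were detected, against 61.8% of protein-coding genes. At 0.5 TPM 43 genes were detected, against 65.3%, and at 2 TPM 33 genes, against 57.2%. The median of the mean levels was 6.57 TPM over all 47 genes, against 4.97 TPM over protein-coding genes. Among detected genes alone the order turned round, with a median of 9.72 TPM for the 39 genes and 18.5 TPM for protein-coding genes. Most of the 47 genes thus lay at modest levels, and few were high. The 8 genes below the level were 5 BMP-type ligands, the ligand genes Inhba and Tgfb1, and the R-Smad gene Smad9. Every gene of the antagonists, type I receptors, type II receptors, inhibitory Smads and Id genes reached it. Levels of different genes are compared on this scale throughout. In a whole tissue, fewer cells of a type and less RNA per cell cannot be told apart.

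**Figure D1:**
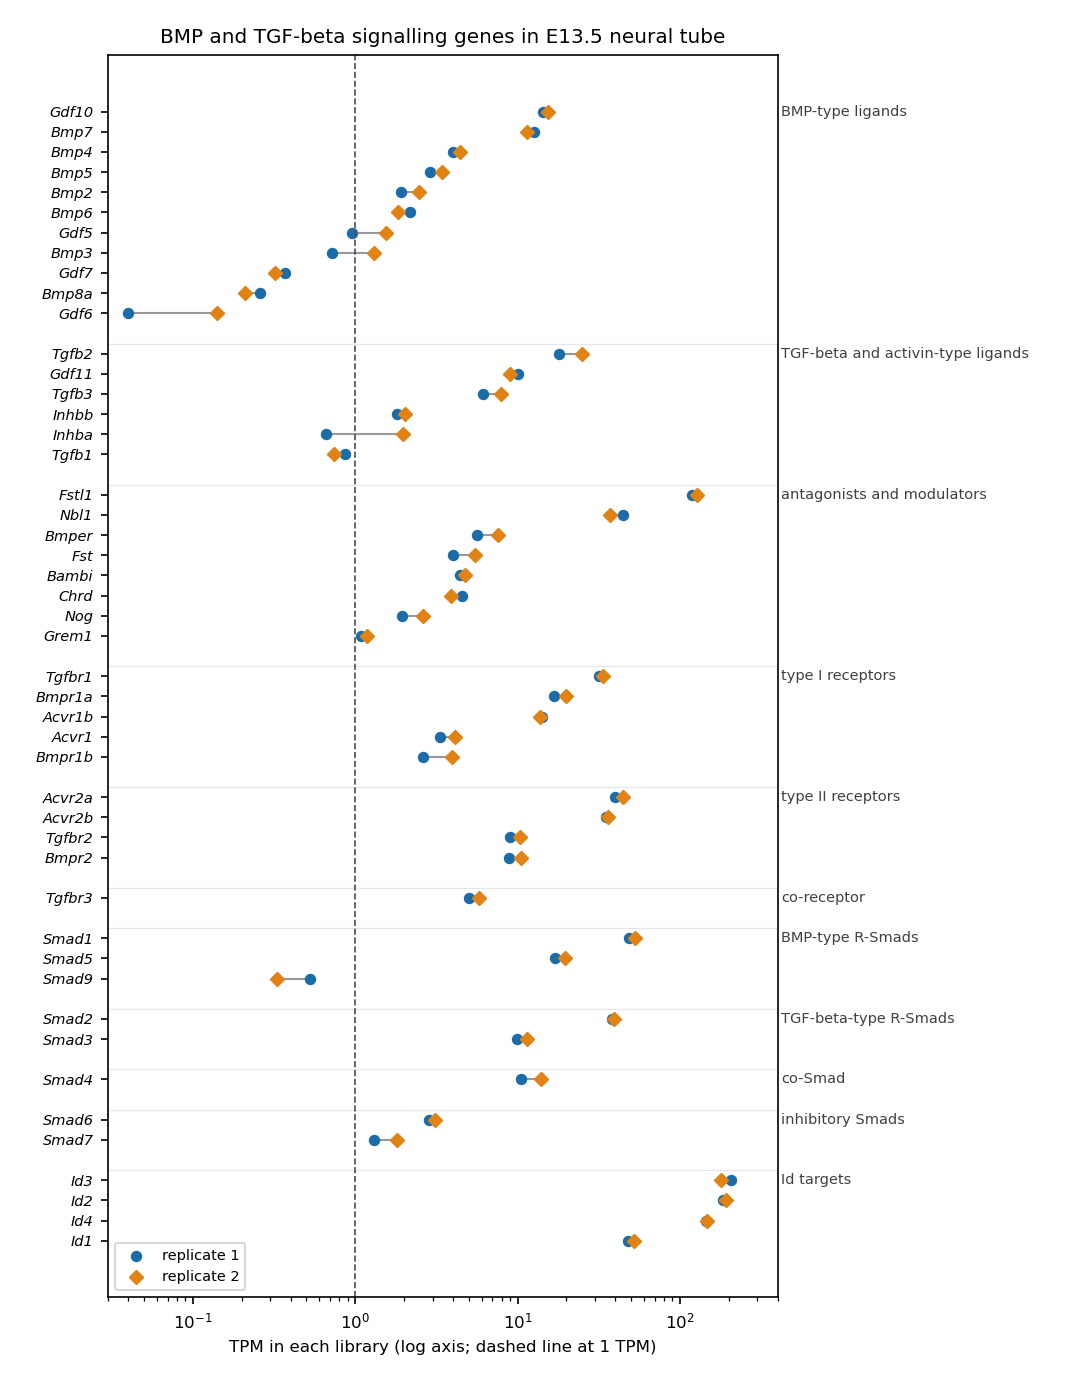
TPM of each of the 47 genes in replicate 1 (circles) and replicate 2 (diamonds) on a log axis, grouped by role and ordered by mean level within a role, with the dashed line at 1 TPM. The Id genes sit between 47.8 and 205 TPM, and Inhba, Gdf6 and Bmp3 have the widest gaps between the libraries among the ligands.

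The roles held very unequal amounts of transcript. Summed over the 47 genes, the level was 1140 and 1174 TPM in replicates 1 and 2. The 4 Id genes held 49.8% ± 1.83 of that sum (SD, n = 2 for all shares here), and the antagonists and modulators 16.2% ± 0.009. Type II receptors held 8.39% ± 0.377 and type I receptors 6.22% ± 0.268. BMP-type R-Smads held 5.99% ± 0.298 and TGF-beta-type R-Smads 4.27% ± 0.079. The BMP-type ligands, although 11 genes, held 3.58% ± 0.065, a share close to the 3.64% ± 0.483 of the TGF-beta and activin-type ligands. Over all transcripts, those 2 ligand shares differed by less than the spread between the libraries. On protein-coding transcripts alone, the BMP-type ligands held 3.59% and the TGF-beta and activin-type ligands 2.83%. The shares were then less alike. The co-Smad held 1.05% ± 0.197, the co-receptor 0.466% ± 0.035 and the inhibitory Smads 0.391% ± 0.035.

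**Figure D2:**
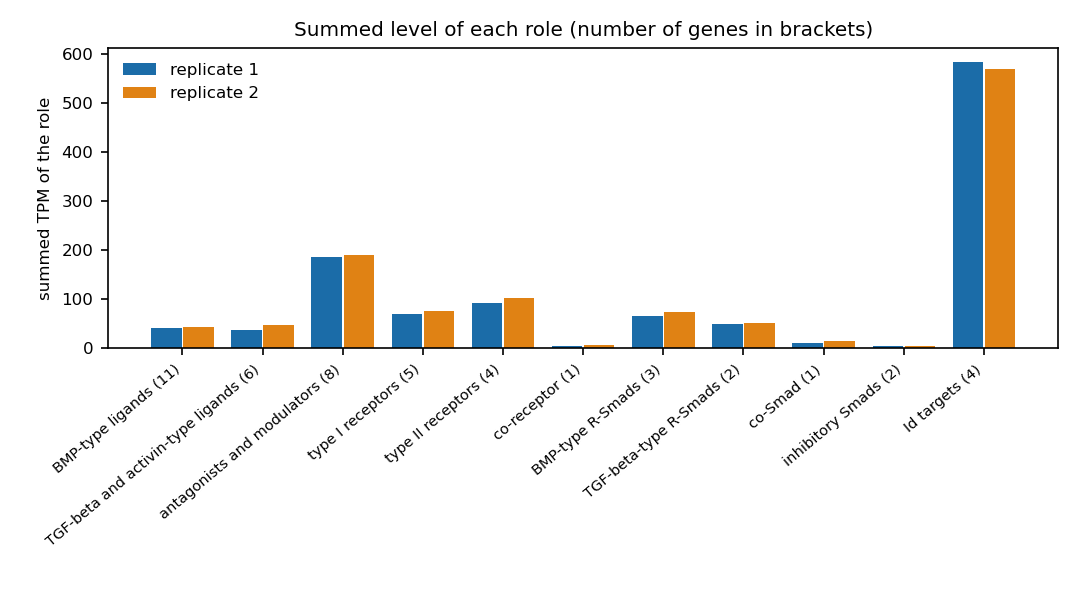
Summed TPM of the genes of each role in replicate 1 (left bars) and replicate 2 (right bars), with the number of genes in brackets. The Id genes reach 582 and 569 TPM in replicates 1 and 2, and no other role passes 191 TPM.

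Among the BMP-type ligands, Gdf10 and Bmp7 were the highest and Gdf6 the lowest. Which Smads Gdf10 and Bmp3 act through was not tested, and the sums, shares and ratios of this class include both. Gdf10, the gene of a BMP3-related factor (ENSMUSG00000021943.6, GRCm38 chromosome 14, 33923587 to 33937983, plus strand), had 14.4 TPM in replicate 1 and 15.5 TPM in replicate 2. Bmp7, which the roof plate and many epithelia express (ENSMUSG00000008999.7, chromosome 2, 172868012 to 172940321, minus strand), had 12.6 and 11.5 TPM. Gdf10 exceeded Bmp7 by 1.25 ± 0.148-fold (SD, n = 2), in both libraries. On protein-coding transcripts alone Bmp7 had 9.68 and 10.4 TPM, and Gdf10 exceeded it by 1.49-fold in each library. Over all transcripts, these genes together held 66.9% of the BMP-type ligand TPM in replicate 1 and 63.3% in replicate 2.

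The best known BMP ligands followed at lower levels. Bmp4, a dorsal patterning factor, had 4.01 TPM in replicate 1 and 4.4 TPM in replicate 2. Bmp5, which acts in skeletal and dorsal tissues, had 2.9 and 3.43 TPM. Bmp2, a close relative of Bmp4, had 1.92 and 2.46 TPM, and Bmp6, also a roof plate factor, had 2.18 and 1.84 TPM. The order of Bmp2 and Bmp6 changed between the libraries, so their levels were not separated by the spread. Bmp6 shared 224 of 3900 exon bases with Txndc5 on the other strand, a gene with 4230.0 and 3097 counts. The handling of strand is not given in the sources used here, so reads over those bases cannot be told apart.

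The joint and skeletal ligand gene Gdf5 lay at the detection level, with 0.96 TPM in replicate 1 and 1.54 TPM in replicate 2. Bmp3, an atypical ligand of bone, had 0.72 and 1.3 TPM, and both genes passed 1 TPM in replicate 2 alone. Gdf7, the roof plate ligand that specifies the most dorsal interneurons, had 0.37 and 0.32 TPM, which rested on 11 and 6 counts. Bmp8a, a germ line factor, had 0.26 and 0.21 TPM. Gdf6, which acts in dorsal tube, eye and joints, had 0.04 and 0.14 TPM from 3 and 7 counts, too few to order the libraries.

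Over all transcripts, Tgfb2 had the highest level of the TGF-beta and activin-type ligands in both libraries. This gene of 1 of the 3 TGF-beta isoforms (ENSMUSG00000039239.10, chromosome 1, 186622792 to 186705989, minus strand) had 18.01 and 25.1 TPM in replicates 1 and 2. Tgfb3 had 6.1 and 7.94 TPM, so Tgfb2 exceeded it by 3.05 ± 0.143-fold (SD, n = 2). On protein-coding transcripts alone Tgfb2 had 8.94 and 11.8 TPM, and exceeded Tgfb3 by 1.48 ± 0.019-fold. Tgfb1, the isoform prominent in blood and immune cells, stayed below the detection level with 0.87 and 0.74 TPM. Tgfb2 exceeded Tgfb1 by 20.7-fold in replicate 1 and 33.9-fold in replicate 2, where Tgfb1 rested on 30 and 22 counts. Those folds were 15.7 and 16.0 on protein-coding transcripts. Of the 3 isoforms, the order Tgfb2, Tgfb3, Tgfb1 held in both libraries.

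Gdf11, which in the spinal cord sets axial identity and the timing of neurogenesis, had 10.1 and 9.01 TPM in replicates 1 and 2. In replicate 1 this was above the protein-coding level of Tgfb2. The activin subunit genes Inhba and Inhbb were lower. Inhbb had 1.82 and 2.03 TPM. Inhba had 0.66 and 1.96 TPM, the widest gap of any gene here with at least 10 mean counts. The ratio of Inhba over Inhbb was 0.363 in replicate 1 and 0.966 in replicate 2, so Inhbb stood clearly higher in replicate 1 alone.

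The Tgfb2 transcripts differed from the other members in one respect. It was the 1 detected gene of 39 whose leading transcript was not the same in both libraries, and that leading transcript was a retained-intron form in replicate 1. The retained-intron transcript Tgfb2-205 held 41.1% of the gene's TPM in replicate 1 and 30.5% in replicate 2, and the coding transcript Tgfb2-201 held 31.5% and 35.5%. A second retained-intron form, Tgfb2-202, held 7.35% and 21.2%. Coding transcripts together held 49.6% and 47.3%. These retained-intron models are short, 898 and 744 bases against 5116 for Tgfb2-201, and TPM divides by length. In estimated counts the coding Tgfb2-201 was highest, with 644 in replicate 1 and 639 in replicate 2, against 134 and 87.4 for Tgfb2-205.

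A second coding form, Tgfb2-206, held 18.2% of the TPM in replicate 1 and 11.8% in replicate 2. Against Tgfb2-201 its reading frame has 1 added exon of 84 bases, or 28 codons, at chr1:186690721-186690804 (GRCm38, minus strand). The exon is shown because it is the only coding difference between these forms. Capitals mark the exon and lower case the 12 coding bases on either side.
Tgfb2-206: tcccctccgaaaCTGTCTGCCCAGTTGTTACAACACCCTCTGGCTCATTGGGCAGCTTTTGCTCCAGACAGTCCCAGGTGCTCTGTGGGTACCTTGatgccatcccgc

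All 8 antagonists and modulators were detected, and 2 of them held most of the transcript. Fstl1, a secreted follistatin-like glycoprotein that modulates BMP signalling (ENSMUSG00000022816.7, chromosome 16, 37776873 to 37836514, plus strand), had 119 TPM in replicate 1 and 128 TPM in replicate 2. Its mean lay above 94.4% of protein-coding genes. Nbl1, the DAN-family BMP antagonist (ENSMUSG00000041120.6, chromosome 4, 139082284 to 139092993, minus strand), had 44.9 and 37.4 TPM. Fstl1 exceeded Nbl1 by 3.03 ± 0.547-fold (SD, n = 2), and by 2.28 ± 0.45-fold on protein-coding transcripts alone.

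The classical antagonists were expressed far below these genes. Chrd (chordin) had 4.57 TPM in replicate 1 and 3.87 TPM in replicate 2. Nog (noggin) had 1.94 and 2.62 TPM. Grem1 (gremlin) had 1.09 and 1.19 TPM, the lowest level of any detected gene here. Fst (follistatin), which binds activins and some BMPs, had 4.01 and 5.49 TPM. Bmper, which binds BMPs in vessels and lung and can inhibit or promote signalling, had 5.6 and 7.54 TPM. Bambi, a transmembrane pseudoreceptor, had 4.44 and 4.76 TPM. Of these 6 genes Bmper was the highest and Nog and Grem1 the lowest in both libraries, while Fst, Bambi and Chrd changed places. Chrd shared 239 of 6258 exon bases with Thpo on the other strand, but Thpo had only 25.0 and 26.1 counts.

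Summed, antagonists and modulators exceeded BMP-type ligands by 4.53 ± 0.085-fold, a log2 ratio of 2.18 ± 0.03 (SD, n = 2). The sums were 185 TPM for the antagonists and 40.3 TPM for the ligands in replicate 1, and 191 TPM and 42.6 TPM in replicate 2. This excess rested on Fstl1 and Nbl1. Without them, the other 6 antagonists summed to 0.537 of the ligand TPM in replicate 1 and 0.598 in replicate 2. Of the Fstl1 level, 71.1% and 73.4% lay in its 1 coding transcript, Fstl1-201, and the noncoding Fstl1-202 held 22.7% and 19.5%.

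Type I receptors were all detected, with Tgfbr1 the highest and Bmpr1b the lowest. Tgfbr1, the TGF-beta type I receptor (ENSMUSG00000007613.11, chromosome 4, 47353222 to 47414931, plus strand), had 31.9 TPM in replicate 1 and 33.6 TPM in replicate 2. Bmpr1a, the widely used BMP type I receptor, had 16.8 and 19.8 TPM, so Tgfbr1 exceeded it by 1.79 ± 0.142-fold (SD, n = 2). Acvr1b, an activin type I receptor, had 14.2 and 13.8 TPM. Acvr1, a BMP type I receptor also called ALK2, had 3.33 and 4.14 TPM. Bmpr1b, a BMP type I receptor of cartilage and dorsal neural tube, had 2.6 and 3.95 TPM. Bmpr1a exceeded Bmpr1b by 5.75 ± 1.03-fold, and the order of Acvr1 over Bmpr1b held in both libraries, by less than the gap between the libraries.

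Type II receptors were led by the activin receptors. Acvr2a (ENSMUSG00000052155.5, chromosome 2, 48814109 to 48903269, plus strand) had 39.7 TPM in replicate 1 and 44.7 TPM in replicate 2. Acvr2b (ENSMUSG00000061393.9, chromosome 9, 119402118 to 119434995, plus strand) had 35.01 and 36.0 TPM. Both bind activins and several BMPs, and Acvr2a was the higher by 1.19 ± 0.077-fold (SD, n = 2). Tgfbr2, the TGF-beta type II receptor, had 9.03 and 10.4 TPM, and Bmpr2, the BMP type II receptor, had 8.89 and 10.5 TPM. The order of Tgfbr2 and Bmpr2 changed between the libraries. Acvr2a exceeded Bmpr2 by 4.35 ± 0.151-fold. Acvr2a shared 446 of 5686 exon bases with Orc4 on the other strand, which had 2376 and 1709 counts against 5009 and 3577 for Acvr2a.

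Type II receptors together exceeded type I receptors by 1.35 ± 0.003-fold, with sums of 92.6 over 68.8 TPM in replicate 1 and 102 over 75.3 TPM in replicate 2. The co-receptor Tgfbr3 (betaglycan), which presents TGF-beta2 to the receptors, had 5.03 and 5.77 TPM. Coding transcripts held 83.1% and 80.6% of the Tgfbr3 TPM, with 74.4% and 76.7% in Tgfbr3-201.

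Both Tgfbr2 and Acvr2b were divided between 2 coding transcripts that differ by 1 short exon. Tgfbr2-201 held 69.5% of its gene's TPM in replicate 1 and 63.1% in replicate 2, and Tgfbr2-202 held 30.5% and 37.0%. Tgfbr2-202 adds 75 bases, or 25 codons, at chr9:116158271-116158345 (GRCm38, minus strand), and the authors' transcript lengths of 4785 and 4710 bases differ by the same 75. Acvr2b-202 held 62.8% and 69.3%, and Acvr2b-201 held 37.2% and 30.7%. In the later annotation used here, Acvr2b-202 adds 24 bases, or 8 codons, at chr9:119428201-119428224 (plus strand). Its length there is 2093 bases, against 1696 in the authors' table, and whether their model of it holds this exon was not checked. The exons are shown because they are what the forms do not share, with capitals for the exon and lower case for the 12 coding bases on either side.
Tgfbr2-202: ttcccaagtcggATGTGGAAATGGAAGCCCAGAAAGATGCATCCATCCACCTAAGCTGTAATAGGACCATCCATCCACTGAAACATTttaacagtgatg
Acvr2b-202: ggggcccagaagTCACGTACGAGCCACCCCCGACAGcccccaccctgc

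Acvr1 and Bmpr1b were divided in another way, between transcripts with the same coding length. Acvr1-203 held 62.0% in replicate 1 and 54.8% in replicate 2, and Acvr1-204 held 19.6% and 37.8%, both with 1527 coding bases. Bmpr1b-201 held 92.7% and 66.2%, and Bmpr1b-203 held 2.68% and 22.0%, both with 1506 coding bases. The Bmpr1b-203 values rested on 3.22 and 25.5 estimated counts.

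BMP-type R-Smads exceeded TGF-beta-type R-Smads by 1.4 ± 0.044-fold (SD, n = 2), with sums of 65.9 over 48.0 TPM in replicate 1 and 72.8 over 50.8 TPM in replicate 2. Smad1 (ENSMUSG00000031681.10, chromosome 8, 79338395 to 79399518, minus strand) had 48.3 and 52.9 TPM, and Smad5 had 17.0 and 19.6 TPM. Smad1 exceeded Smad5 by 2.77 ± 0.096-fold. Smad9, the other BMP-type R-Smad, had 0.53 and 0.33 TPM from 63 and 25 counts and was not detected at 1 TPM.

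Smad2 was the higher of the TGF-beta-type R-Smads, with 38.1 TPM in replicate 1 and 39.4 TPM in replicate 2, against 9.92 and 11.4 TPM for Smad3. The ratio of Smad2 over Smad3 was 3.65 ± 0.263 (SD, n = 2). Smad2-205 held 67.4% and 72.2% of the Smad2 TPM. Smad2-203, which lacks a coding exon of 90 bases and differs elsewhere too, held 28.6% and 26.4%. The Smad2-203 model is short, 1305 bases against 2857 for Smad2-205, and TPM divides by length. In estimated counts Smad2-203 had 297 in replicate 1 and 180 in replicate 2, against 1601 and 1124 for Smad2-205. In the later annotation used to read the exon, Smad2-205 has 8089 bases. Smad4, the partner of both branches, had 10.4 and 14.02 TPM. Its level was thus below the sum of either kind of R-Smad in both libraries.

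The inhibitory Smads, which block receptors and R-Smads and are themselves induced by the pathway, had the lowest summed TPM of the roles, 0.391% of the sum over all transcripts, below the co-receptor. With posterior mean TPM and with protein-coding transcripts only, the co-receptor was lower, at 0.486% and 0.405% against 0.499% and 0.416% for the inhibitory Smads. Smad6, which acts mainly on BMP signalling, had 2.86 TPM in replicate 1 and 3.09 TPM in replicate 2. Smad7, which acts on both branches, had 1.31 and 1.8 TPM. Smad6 was the higher in both libraries.

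The Id genes encode helix-loop-helix proteins without a DNA-binding region, which hold back neurogenic factors and keep progenitors undifferentiated. Id3 (ENSMUSG00000007872.3, chromosome 4, 136143497 to 136145755, plus strand) had 205 TPM in replicate 1 and 179.5 TPM in replicate 2. Id2 (ENSMUSG00000020644.8, chromosome 12, 25093799 to 25097140, minus strand) had 185 and 191 TPM. Id3 and Id2 changed places between the libraries. Id4 (ENSMUSG00000021379.1, chromosome 13, 48261228 to 48266026, plus strand) had 145 and 146 TPM, below Id3 and Id2 in both. Id1 (ENSMUSG00000042745.9, chromosome 2, 152736251 to 152737410, plus strand) was the lowest, with 47.8 and 51.9 TPM. Id2 exceeded Id1 by 3.77 ± 0.126-fold (SD, n = 2). The means of Id3, Id2, Id4 and Id1 lay above 96.7%, 96.6%, 95.5% and 85.2% of protein-coding genes.

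As a sum the Id genes exceeded the inhibitory Smads by 140-fold in replicate 1 and 116-fold in replicate 2, a log2 ratio of 6.99 ± 0.19 (SD, n = 2). Both are textbook targets of BMP signalling, and Id genes also respond to other signals. Id4 shared 82 of 3849 exon bases with the antisense gene A330033J07Rik, which had 86.3 and 47.2 counts against 5102 and 3277 for Id4.

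Smad1 and Smad5 are known to bind the palindrome GGCGCC in Id promoters, and Smad3 and Smad4 are known to bind the palindrome GTCTAGAC. These motifs were searched in RefSeq promoter windows of GRCm38.p6, from 250 bases before to 50 bases after the start of each gene. Each motif reads the same on both strands, and the motifs cannot overlap each other. Windows were matched for 33 of the 47 genes. GGCGCC was present in 12 of the 33 genes, or 36.4%, against 13.4% of all 27025 genes with a window and 17.3% of 17492 protein-coding ones. Those 12 genes were Acvr1b, Bmpr1a, Bmpr2, Chrd, Gdf10, Grem1, Id2, Id4, Nbl1, Smad5, Smad9 and Tgfbr1. Smad5 had 3 windows and Tgfbr1 had 2, which gives them more sequence to match. GTCTAGAC was present in 1 of the 33, Smad6, against 0.248% of all genes and 0.263% of protein-coding ones. A match describes these letters and is no evidence of binding in this tissue. The base composition of the windows was not compared.

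The 3 stretches that hold a match in an Id gene or in Smad6 are shown, with the motif in capitals. For Id4 it is the 250 bases before the RefSeq start, chr13:48260866-48261115 (plus strand), where the motif begins 148 bases before the start. For Id2 it is 30 bases at chr12:25096306-25096335 (minus strand), with the motif 231 bases before the start. For Smad6 it is 30 bases at chr9:64022045-64022074 (minus strand), where the motif begins 4 bases before the start and runs across it. Id3 held neither motif in its window, and Id1 had no matched window and was not searched.
Id4: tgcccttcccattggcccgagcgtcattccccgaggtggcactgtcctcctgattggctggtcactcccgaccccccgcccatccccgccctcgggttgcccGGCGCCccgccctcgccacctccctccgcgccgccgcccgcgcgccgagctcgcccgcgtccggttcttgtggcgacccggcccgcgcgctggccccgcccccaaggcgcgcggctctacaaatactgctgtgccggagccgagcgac
Id2: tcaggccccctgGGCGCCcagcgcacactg
Smad6: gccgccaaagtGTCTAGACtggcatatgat

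Across the 39 detected genes, transcript use was simple for most. The annotation gave 14 of them 1 transcript and 25 several, and 24 of those 25 had the same leading transcript in both libraries. In 13 of the 25 the leading transcript held 90% or more of the TPM in both. Coding transcripts held less than 80% of the TPM in both libraries in 2 genes, Tgfb2 and Fstl1. Bmp4 was among the more divided genes, with 76.1% in Bmp4-201 in replicate 1 and 78.5% in replicate 2, and 12.3% and 14.3% in Bmp4-202, which has the same coding length of 1224 bases. Under posterior mean shares the leading transcript held 67.1% in Bmp4, 50.2% in Acvr1 and 71.2% in Tgfbr3 on average over the libraries. These shares are estimates from short reads, and those of low transcripts rest on few of them.

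**Figure D3:**
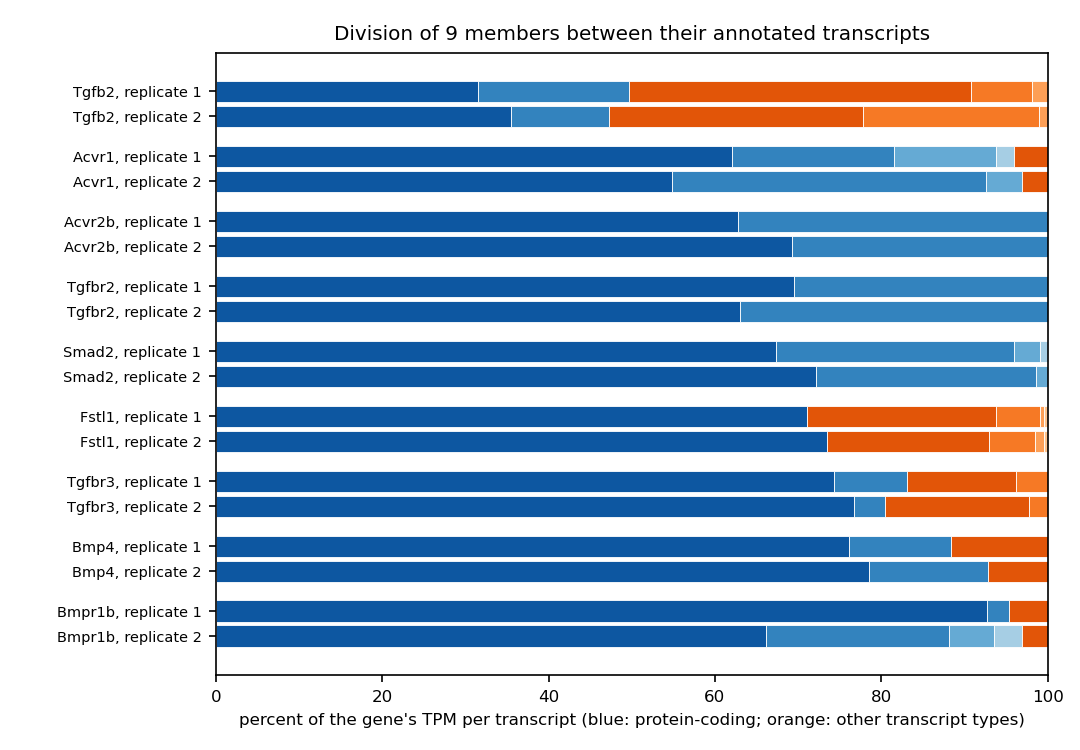
Percent of the gene's TPM in each annotated transcript for the 9 genes named for divided transcript use, replicate 1 above replicate 2, with protein-coding transcripts in blue and other types in orange. Tgfb2 has the largest orange share in both libraries, and the Bmpr1b pair shows the shift between Bmpr1b-201, at 92.7% and 66.2%, and its other transcripts.

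A wider list of 91 pathway genes outside the 47 was described for context. Of these, 90 were matched, without Gdf1, and 60 were detected, again against 61.8% of protein-coding genes. Intracellular regulators were detected in 24 of 24 cases, with a median of 20.1 TPM. Fkbp1a, which encodes a protein that holds type I receptors inactive, had 494 TPM in replicate 1 and 479.9 TPM in replicate 2. Usp15, a deubiquitinase of the pathway, had 40.6 and 44.1 TPM. Ppm1a, a phosphatase, had 33.4 and 32.6 TPM, and Lemd3, a nuclear membrane protein that binds R-Smads, was the lowest of the class with 2.29 and 2.36 TPM.

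Extracellular genes outside the 47 ranged widely. Of the other antagonists and extracellular modulators, 10 of 15 were detected. The transmembrane follistatin-domain genes Tmeff1, with 237 and 246 TPM, and Tmeff2, with 104 and 96.6 TPM, and the follistatin-like gene Fstl5, with 43.4 and 45.9 TPM, were highest, and the lowest was the bone antagonist gene Sost with 0.07 and 0.11 TPM. Latency and processing genes were detected in 11 of 14 cases. The procollagen proteinase gene Bmp1, which cleaves chordin and is no BMP ligand, had 26.3 and 29.5 TPM, the integrin gene Itgav 27.2 and 24.8 TPM and Itgb8 6.18 and 7.36 TPM, the 3 highest by mean level, with Ltbp2 lowest at 0.06 and 0.16 TPM.

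By contrast 2 of 15 other ligands were detected, with a class median of 0.06 TPM. The inhibin alpha gene Inha had 10.0 TPM in replicate 1 and 10.4 TPM in replicate 2, Gdf9, the oocyte factor, had 2.57 and 2.76 TPM, and Mstn (myostatin) had 0.81 and 1.58 TPM. Gdf2 and Inhbc were listed at 0 in both libraries. Of 10 other receptors and co-receptors 5 were detected. The BMP co-receptor genes Rgmb, with 63.4 and 66.6 TPM, and Rgma, with 25.8 and 31.0 TPM, and their partner Neo1, with 21.03 and 24.5 TPM, were highest by mean level, close to Eng with 21.3 and 24.0 TPM. Cfc1 was listed at 0. Of 12 other target genes 8 were detected. By mean level the highest were Cdkn1a with 40.9 and 42.9 TPM, Msx1 with 14.8 and 18.5 TPM and Msx3 with 13.6 and 17.7 TPM, while Tgfbi, with 11.3 and 19.2 TPM, passed both Msx genes in replicate 2. Hamp, the hepcidin gene, averaged 0.075 TPM, from 0.15 TPM in replicate 1 and a value listed at 0 in replicate 2.

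**Figure D4:**
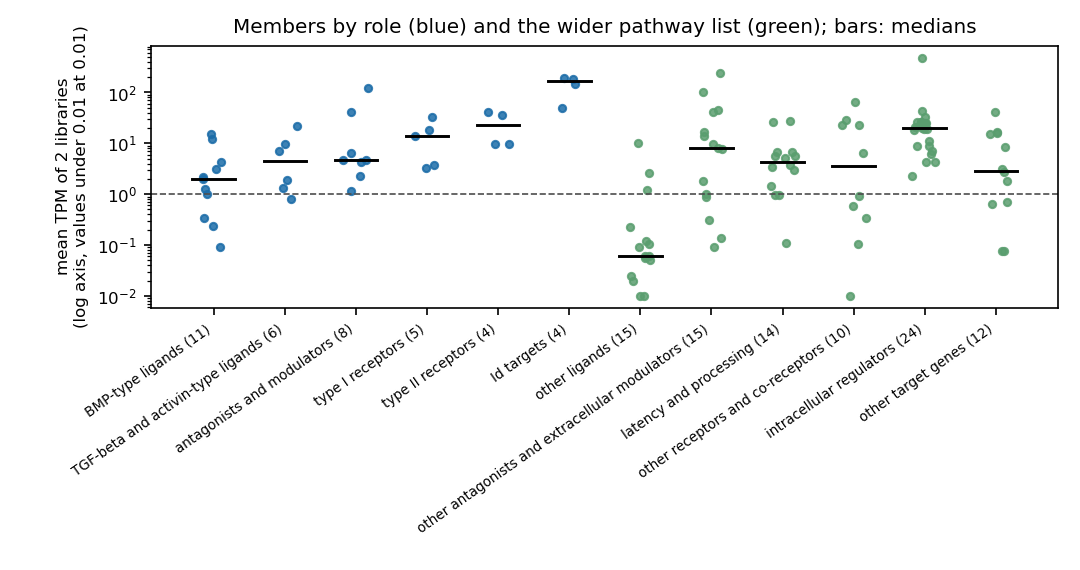
Mean TPM of the 2 libraries on a log axis, 1 point per gene, for the roles of the 47 genes with more than 3 genes (blue) and for the 6 classes of the wider list (green), with black bars at the class medians and the dashed line at 1 TPM. The Id genes have the highest median, 167 TPM, and the other ligands the lowest, 0.06 TPM.

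The counts of the libraries were then set against counting noise with an exact binomial test, two-sided, with Benjamini-Hochberg adjustment over 17428 genes. Calls needed 2-fold or more and an adjusted p under 0.05. The test compares these libraries and no conditions, and its errors cover counting only. Of 44 tested genes 1 was called, Inhba, against 2.25% of all genes in either direction and 1.46% higher in replicate 2. No member was called higher in replicate 1, against 0.792% of all genes. Inhba (ENSMUSG00000041324.9, chromosome 13, 16011851 to 16031621, plus strand), the activin A subunit gene, had 22 counts in replicate 1 and 41 counts in the shallower replicate 2. The log2 ratio of replicate 1 over replicate 2 was -1.48 ± 0.38 (counting SE), with an exact binomial adjusted p of 0.0008. The share called among the 44 was thus near that of all genes.

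At a lower fold minimum of 1.5-fold, Bmp3 was added, with 49 counts in replicate 1 and 56 in replicate 2, a log2 ratio of -0.79 ± 0.28 (counting SE) and an exact binomial adjusted p of 0.0253. That made 2 called genes of the 44, against 4.07% of all genes. At any fold, 14 of 44 had an exact binomial adjusted p under 0.05, against 24.6% of all genes. Of those 14, Gdf11, Nbl1 and Id3 were higher in replicate 1, and Bmp3, Inhba, Tgfb2, Tgfb3, Fst, Fstl1, Bmper, Bmpr1a, Bmpr2, Acvr2a and Smad5 were higher in replicate 2. Except for Inhba and Bmp3, the log2 ratios of these 14 lay between -0.41 for Tgfb2 and 0.31 for Nbl1. The log2 ratio was negative in 33 of the 44 genes and positive in 11. Their median was -0.12, against -0.0001 over all genes tested, where 8716 were negative and 8712 positive. In the wider list of pathway genes, the log2 ratio was negative in 51 of 71 tested genes and positive in 20. The median there was -0.12 as well, so the tilt to replicate 2 was not particular to the 44 genes. Its cause was not tested.

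**Figure D5:**
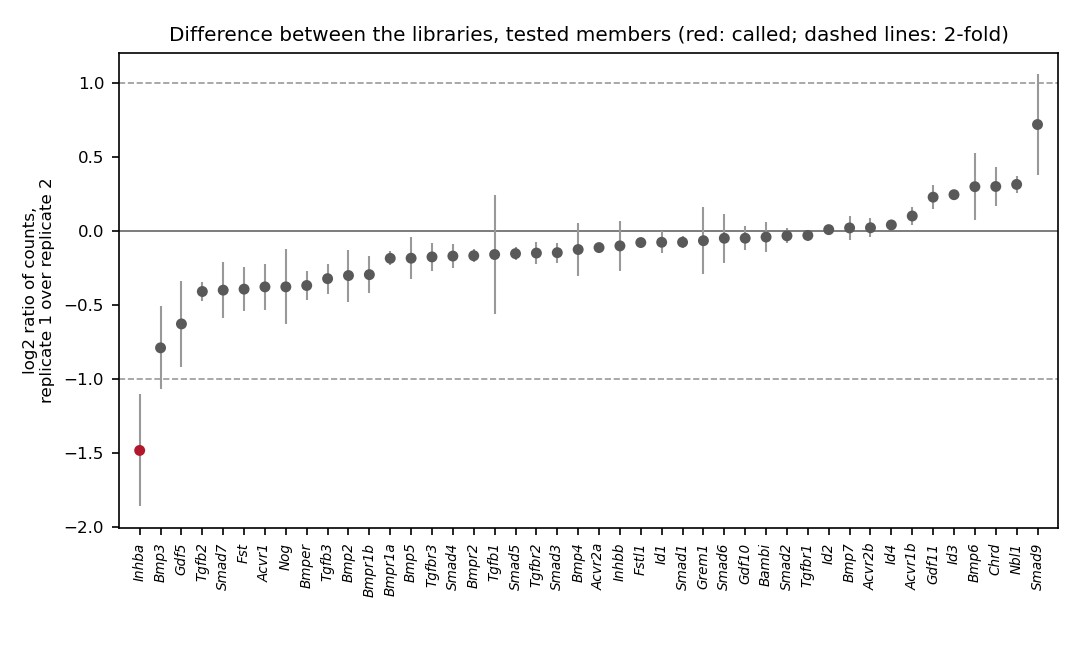
Log2 ratio of scaled counts, replicate 1 over replicate 2, for the 44 tested genes in order of size, with bars for the counting SE, dashed lines at 2-fold and the called gene in red. Inhba lies at -1.48 and Bmp3 at -0.79, while Smad9 at 0.72 has a bar of 0.34.

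Markers of tissues around the tube moved the same way as Inhba and Bmp3. All 5 skeletal muscle markers were called higher in replicate 2, with a summed level of 44.6 and 121 TPM in replicates 1 and 2. Of 5 epidermal markers 4 were called, with sums of 6.95 and 16.9 TPM, and of 5 cartilage and sclerotome markers 2 were called, Pax1 and Pax9, with sums of 56.3 and 82.1 TPM. Of 3 tested notochord markers 2 were called, the keratin genes Krt8 and Krt18, with sums of 2.08 and 7.68 TPM, while Noto was at 0 in both libraries. Of 9 meningeal and mesenchymal markers 1 was called, Prrx1, with sums of 755 and 803 TPM. Of 5 forebrain markers 1 was tested and called, Dlx2, at 0.17 and 0.56 TPM, and none of the 5 was detected. Every call among these markers was higher in replicate 2, and their part in the Inhba and Bmp3 results was not tested.

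The remaining 10 marker lists held no called gene. Neural progenitor markers summed to 2985 and 2885 TPM in replicates 1 and 2, and neuronal markers to 3493 and 3368 TPM, so genes of both cell types were present as the tissue label implies. The progenitor gene Sox1 was below 1 TPM, with 0.72 and 0.86 TPM. Markers of the roof plate, which expresses several BMP ligands, were low, with 4 of 6 detected and sums of 23.0 and 28.3 TPM. In the wider list 0 of 71 tested genes were called by the exact binomial test at 2-fold, and 6 of 71 at 1.5-fold, against 4.07% of all genes. At any fold, 32 of the 71 had an unadjusted p under 0.05, against 34.6% of all genes, and 23 an adjusted p under 0.05, against 24.6%.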

How the data were processed

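Total RNA-seq of 1 group, neural tube at embryonic day 13.5, was analysed in 2 libraries, with 34125110 and 22311849 estimated reads in replicates 1 and 2. The build is mm10, per the authors' notes deposited with the tables, with GENCODE M4 as annotation. Which aligner and quantifier ran, and whether strand was used, is not given in the sources used here. Per the file headers, the deposited expected counts estimate the reads of each gene. They were rounded for the test. The deposited TPM are scaled per length to a fixed sum that includes spike-ins. The deposited FPKM and the posterior mean TPM served in alternatives, and the posterior mean of the count, a signal in reads, did not. For transcript shares the alternative was the posterior mean isoform percent. The deposited isoform percent is a transcript's share of its gene's TPM.

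Names and coordinates came from GENCODE M21 (GRCm38), matched on identifiers without version. All 125 transcripts of the 47 genes matched, 109 with the same length. Counts were scaled by trimmed mean of M values (edgeR 4.0.16, R 4.3.3), with 0.5 added for log2 ratios. Genes entered the exact binomial test at a mean count of at least 10. The biological coefficient of variation is edgeR's, from an intercept-only fit. DESeq2 1.42.0 gave alternative size factors. Other steps ran in Python 3.11.15 with SciPy 1.17.1, pandas 2.3.3 and NumPy 2.4.6. The test was also run on simulated data. Its outcome there is not given here and is not used for any statement about these libraries.

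The 47 genes, the lists and the tests were chosen with earlier results of these data known. Named were all 47 genes, the 3 highest and the lowest of each class of the wider list, and for transcripts the gene whose leading transcript differed plus the 8 most divided others; 1 gene of the wider list that the rule names is not reported here. Tgfbi, Eng, other genes named for overlaps and the markers named were chosen after their values were seen. No molecular identifiers are stated, so errors of counts cover counting only. The labels call the libraries biological replicates.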

Additional observations from a re-analysis of the deposited data

How the results depend on the processing

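Of 148 values recomputed under alternatives, 125 stayed within the limits set and 0 changed direction. Shares and numbers of genes are never negative, so only the log2 ratios could have changed sign. Part of the 148 values could not have moved. Leaving out 1 of 2 libraries shifts a mean share or ratio by less than its SD, and FPKM is proportional to TPM within a library. The 15 FPKM values were thus fixed in advance, as were the shares and ratios among the 26 values without each library. They say nothing about robustness. The detected genes numbered 43 at 0.5 TPM, 33 at 2 TPM, and 39 to 42 with 1 library left out. The called genes numbered 1 under DESeq2 size factors, total counts and no filter on low counts, and 2 at 1.5-fold. With protein-coding transcripts only, chosen after seeing the data, the share of TPM was 2.83% for TGF-beta and activin-type ligands, 13.9% for antagonists and modulators, 6.59% for type I receptors, 8.87% for type II receptors, 0.405% for the co-receptor, 6.32% for BMP-type R-Smads and 4.52% for TGF-beta-type R-Smads, and the log2 ratio of antagonists over BMP-type ligands was 1.96. The fold of Tgfb2 over Tgfb3 was then 1.48 and over Tgfb1 15.8, the 2 of 13 gene pairs that moved by over 1.5 times. With posterior mean TPM, the share was 16.217% for antagonists, 4.41% for TGF-beta-type R-Smads and 0.499% for inhibitory Smads, and the log2 ratio was 0.42 for type II over type I receptors, 0.44 for BMP-type over TGF-beta-type R-Smads and 6.63 for Id genes over inhibitory Smads. Posterior mean shares were 67.1% for Bmp4-201, 50.2% for Acvr1-203 and 71.2% for Tgfbr3-201. With genes at 1 TPM or more only, BMP-type ligands held 3.35% and antagonists 16.3%, and the log2 ratio of antagonists over BMP-type ligands was 2.285. The first and the last setting sum fewer transcripts or genes by construction. For posterior means the cause was not tested. No paired analysis was possible because the series has 1 group.

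With 1 library left out, the shares ranged from 3.54 to 3.63% for BMP-type ligands, 3.30 to 3.98% for TGF-beta and activin-type ligands, 16.225 to 16.238% for antagonists, 6.04 to 6.41% for type I and 8.12 to 8.65% for type II receptors, and 48.5 to 51.1% for Id genes. Depth limits Gdf6, Gdf7 and Bmp8a, which had too few counts for the test.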
